A study of Mus musculus with 8 samples.

Results

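RNA polymerase II (Pol2) occupancy in mouse skeletal muscle is described here gene by gene, from all 20186 Pol2 peaks on chromosomes 1 to 19 and X, out of 189342 peaks in the 6 deposited peak lists on those chromosomes. The members were taken without a threshold: every row of the Pol2 list on those chromosomes was kept. The Pol2 library came from skeletal muscle nuclei of WT C57/Bl6J animals, 10-12 weeks old by the sample labels and 10 weeks old by the series text, and was made with the Santa Cruz antibody H-224 (SC9001). It was paired with Input1, an unprecipitated control that GR, H3K27ac and H3K4me1 also used, while CTCF and H3K4me3 had Input2. All 8 samples shared the strain, genotype and tissue, and the labels name no treatment. The labels do not say which muscles were taken, how many animals were pooled or of which sex. Each antibody had 1 library, so no value below has a replicate error and no test between conditions was possible. Exact 95% intervals on shares (Clopper-Pearson) cover counting error over genes or peaks only, and neighbouring genes and peaks are not independent.

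Pol2 is the enzyme that transcribes protein-coding genes and many non-coding RNAs. It assembles at the transcription start site (TSS), often pauses just downstream of it, and then elongates through the gene body and past the polyadenylation site before it is released. A ChIP signal limited to the TSS reflects polymerase near the start, whether engaged or not, and a signal along the whole body is seen where many polymerases travel along the gene at the same time. In adult muscle the sarcomere, calcium handling and glycolytic genes are known for very high transcript levels. Muscle tissue holds fibre nuclei together with nuclei of endothelial, connective tissue, satellite, immune and Schwann cells. In such a bulk sample, fewer nuclei of a type and less Pol2 per nucleus cannot be told apart.

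Each of 21755 protein-coding genes of the mm10 build (GENCODE) was described by 2 measures. The TSS zone was every base within 1 kb of the start of any of its coding transcripts, and the body was the rest of the gene span. A gene counted as having Pol2 at the TSS if at least 1 base of its TSS zone lay in a Pol2 peak, and its body coverage was the percent of body bases in Pol2 peaks. Coverage is not signal height: the Pol2 list gave positions and no fold or score, and ChIP reads carry no strand, so overlapping genes share their peaks.

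Short stretches of promoter show the kinds of start site that sat under these peaks. The first 6 sequences belong to genes with 50% or more of the body covered and the last 3 to genes with Pol2 at the TSS only. They were chosen after their values were seen. Each is the 120 bases just before the RefSeq start, written 5′ to 3′ in the direction of the gene, from RefSeq on GRCm38.p6, and capitals mark CG pairs and the TATA hexamer TATAAA.
Myh4: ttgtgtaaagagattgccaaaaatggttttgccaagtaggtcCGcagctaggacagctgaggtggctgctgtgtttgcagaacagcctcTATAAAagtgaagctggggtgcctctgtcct
Acta1: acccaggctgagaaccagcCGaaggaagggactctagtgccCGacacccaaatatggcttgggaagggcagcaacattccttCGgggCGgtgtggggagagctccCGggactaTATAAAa
Trim63: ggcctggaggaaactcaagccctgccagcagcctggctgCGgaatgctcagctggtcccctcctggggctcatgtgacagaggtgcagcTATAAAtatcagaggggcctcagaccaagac
Ckm: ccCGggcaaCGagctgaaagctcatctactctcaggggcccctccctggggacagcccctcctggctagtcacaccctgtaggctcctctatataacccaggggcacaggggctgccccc
Ttn: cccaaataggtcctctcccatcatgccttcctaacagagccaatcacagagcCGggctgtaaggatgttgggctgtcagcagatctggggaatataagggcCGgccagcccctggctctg
Pdk4: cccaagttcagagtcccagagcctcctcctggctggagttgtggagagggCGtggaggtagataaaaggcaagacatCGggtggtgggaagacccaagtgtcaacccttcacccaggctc
Polr2a: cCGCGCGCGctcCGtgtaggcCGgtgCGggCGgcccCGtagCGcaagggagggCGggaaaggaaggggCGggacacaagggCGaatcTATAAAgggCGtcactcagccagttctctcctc
Hnrnpl: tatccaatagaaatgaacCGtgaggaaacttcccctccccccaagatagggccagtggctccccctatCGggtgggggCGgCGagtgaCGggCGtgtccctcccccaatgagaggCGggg
Hmgb1: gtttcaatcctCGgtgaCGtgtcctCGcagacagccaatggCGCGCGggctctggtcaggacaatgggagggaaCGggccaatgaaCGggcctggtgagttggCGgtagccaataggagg
The stretches lie at chr11:67237692-67237811 (plus strand) for Myh4, chr8:123894776-123894895 (minus strand) for Acta1, chr4:134315000-134315119 (plus strand) for Trim63, chr7:19410974-19411093 (plus strand) for Ckm, chr2:76982548-76982667 (minus strand) for Ttn and chr6:5496279-5496398 (minus strand) for Pdk4. Those of the TSS-only genes lie at chr11:69758634-69758753 (minus strand) for Polr2a, chr7:28810770-28810889 (plus strand) for Hnrnpl and chr5:149053058-149053177 (minus strand) for Hmgb1. Pol2 peaks covered all 120 bases in Myh4, Trim63, Ckm, Ttn, Pdk4, Polr2a and Hnrnpl, 106 bases in Acta1 and 52 bases in Hmgb1. The 6 stretches of body-covered genes held between 1 and 5 CG pairs, against 14 in Polr2a, 9 in Hmgb1 and 7 in Hnrnpl. The 6 do not stand for their class. In RefSeq promoter windows their ratio of observed to expected CG pairs ran from 0.0722 in Myh4 to 0.436 in Pdk4. All 6 lay below the class median of 0.523, and other body-covered genes were CG-rich, such as Tob1 with 1.02 and Sphk2 with 1.01. TATAAA began 31 bases before the RefSeq start in Myh4 and Trim63, 7 bases before it in Acta1 and 33 bases before it in the TSS-only gene Polr2a, which encodes the largest Pol2 subunit.

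MicroRNA genes supplied another set of sequences, because the widest Pol2 peak that touched no coding gene covered a muscle microRNA locus. The mature 5p arm of miR-1a-1 came from inside that peak, and the arms of miR-206, miR-133b and miR-499 came from loci where no Pol2 peak touched the hairpin. They are RefSeq sequences on GRCm38.p6, 5′ to 3′, with the seed (bases 2 to 8) in capitals.
mmu-miR-1a-1-5p: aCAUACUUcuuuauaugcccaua
mmu-miR-206-3p: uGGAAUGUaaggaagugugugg
mmu-miR-133b-3p: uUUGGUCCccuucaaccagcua
mmu-miR-499-5p: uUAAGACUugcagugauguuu
They lie at chr2:180389057-180389079 for miR-1a-1-5p, chr1:20679055-20679076 for miR-206-3p, chr1:20682834-20682855 for miR-133b-3p and chr2:155622893-155622913 for miR-499-5p, all on the plus strand.

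The Pol2 peaks were mostly short and isolated, with a small set of very long ones. Widths ran between 99 and 27831 bases with a median of 212 (quartiles 151 and 346), and 564 peaks had the smallest width, 99 bases. The 445 peaks over 1 kb were 2.20% of all peaks and held 15.7% of the 6.16 Mb covered. Gaps between neighbouring peaks had a median of 10400 bases, but 6492 gaps (32.2%) were 500 bases or less. TSS zones held 62.3% of all covered bases, gene bodies 24.3%, and 13.4% lay outside protein-coding genes. When peaks at most 500 bases apart were joined, the 20186 peaks became 13694 regions, of which 94 were longer than 5 kb, 33 longer than 10 kb and 9 longer than 20 kb. The longest region, 33336 bases at Neat1, had 15 peaks, and the next, 29888 bases, ran from Lsp1 through Tnnt3.

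Marker genes of muscle fibres were set beside the tissue label. They were chosen with earlier results of these data known, so they are a description and not an independent check. All 8 fibre markers (Acta1, Ckm, Mylpf, Tnnt3, Atp2a1, Myh4, Ttn and Ryr1) had Pol2 at the TSS, with at least 2983 covered bases in the gene span, and 6 of the 8 had 50% or more of the body covered. No slow-fibre form was among the 8. Neither were Neb, Mb and Dmd, which had 3.64%, 7.75% and 0% of the body covered. Of 10 slow or cardiac forms described below, 7 had no Pol2 at the TSS, among them Myh7, Tnnt1 and Tnni1. Among 91 entries in 8 lists of markers of other cell types, 26 had Pol2 at the TSS and none had 50% of the body covered, beside 47% and 0.271% of all genes, so the count of none does not set these lists apart. Pol2 was at the TSS of 10 of 12 fibro-adipogenic and fibroblast markers such as Dcn and Col3a1, of 5 of 12 endothelial markers such as Flt1, near the share of all genes, and of 4 of 12 satellite cell markers. It was at 3 of 10 Schwann cell markers, 2 of 10 adipocyte markers and 2 of 12 immune markers. Pol2 was at the TSS of none of 12 liver markers and none of 11 neuronal markers, which allows shares of up to 26.5% and 28.5% by the exact upper limits. The neuronal marker Syp had 3.13% of its body covered without Pol2 at the TSS. Defining markers without a Pol2 base included Pax7 of satellite cells, Ptprc of immune cells, Cdh5 of endothelial cells and Adipoq of adipocytes.

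Pol2 was at the TSS of 10219 protein-coding genes, 47% of all 21755 (exact 95% interval 46.3 to 47.6%). Body coverage was described for the 19941 genes whose body was at least 1 kb. Among them 54 genes had 50% or more of the body covered (0.271%), 1365 had Pol2 at the TSS and over part of the body (6.85%), and 8449 had Pol2 at the TSS only (42.4%). Another 393 had Pol2 in the body but not at the TSS (1.97%), and 9680 had none (48.5%). Any body base was covered in 1812 genes (9.09%). Of the 1814 remaining genes with a body under 1 kb, 353 had Pol2 and 1461 had none. The median body coverage was 78.1% in the 54 body-covered genes and 0.853% in the genes with partial coverage, and 52 genes fell between 25 and 50%.

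**Figure D1:**
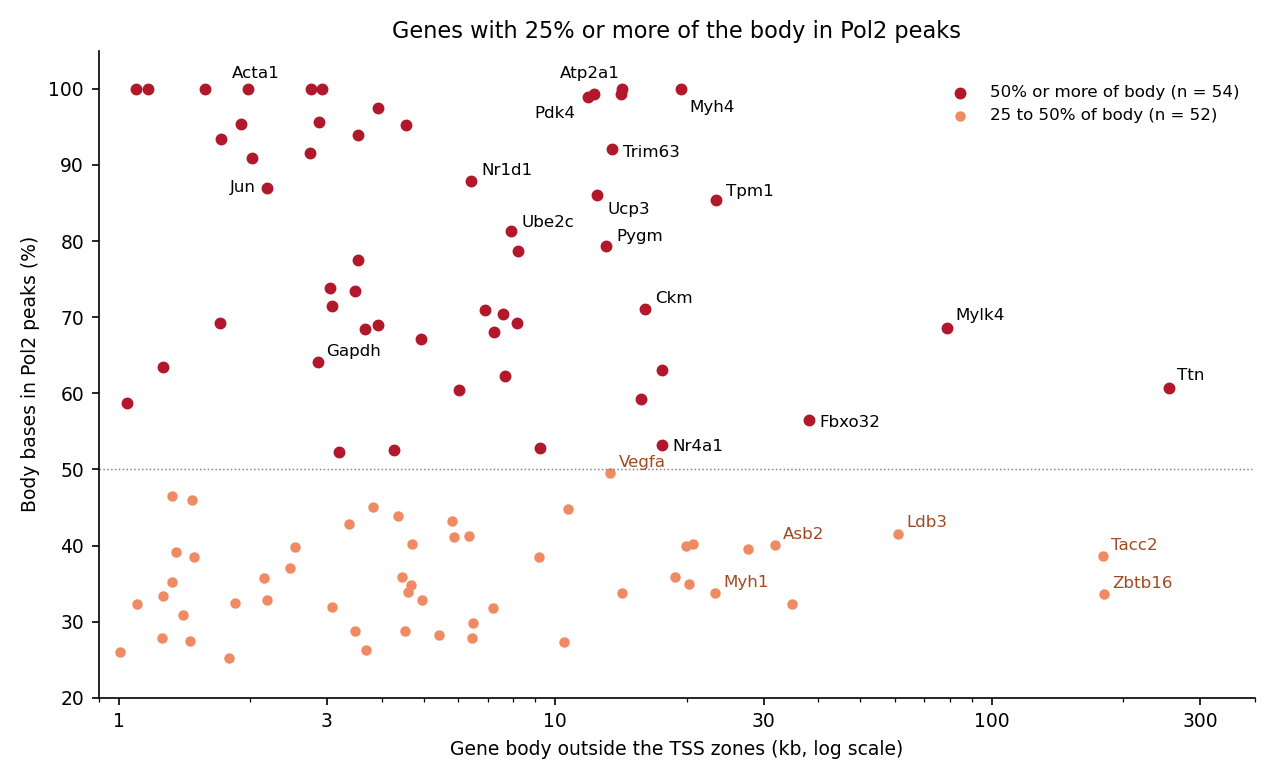
Percent of body bases in Pol2 peaks (vertical axis) against the length of the body in kb (horizontal axis, log scale) for genes with 25% or more of the body covered; each point is a gene, red for the 54 genes at 50% or above (dotted line) and orange for the 52 below. Ttn, with a body of 254653 bases, and Mylk4, with 79119 bases, stood far to the right of the other red points.

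The 54 body-covered genes took up 831133 bases of the genome and held 9.63% of all Pol2-covered bases. They were compact: the median gene span was 7049 bases, against 24196 bases in TSS-only genes and 17414 bases over all genes. The share of genes in this class was 0.739% for bodies of 1 to 5 kb, 0.330% for 5 to 20 kb, 0.0427% for 20 to 50 kb and 0.0417% above 50 kb. Their median widest peak was 2981 bases, against 256 bases in TSS-only genes. Both classes are defined by Pol2 coverage of the body, so this difference is partly built in. Of the 54, 26 belonged to a gene list described below and 28 to none.

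Sarcomere genes were among the most heavily covered. Ttn, which encodes the giant elastic protein titin, had 154614 of 254653 body bases covered (60.7%) by 375 separate peaks, the most of any gene. Myh4, the myosin heavy chain of the fastest fibres, lay wholly inside a single peak of 27831 bases, the longest in the list. Atp2a1, which encodes the calcium pump of fast fibres (SERCA1), also lay inside a single peak, of 23455 bases. Tnnt3, fast troponin T, had 14010 of 14115 body bases covered (99.3%), and Acta1, skeletal actin, had all 1982. Acta1 lies inside the annotated span of the readthrough model Gm20388, to which the same peaks would also count. Tpm1 and Tpm2, which encode tropomyosins, had 85.4% and 62.3% of the body covered. Actn3, the Z-disc alpha-actinin of fast fibres, had 59.2%, and Myl1, a myosin light chain, had 63.1%. Des, which encodes the intermediate filament desmin, had 68.1%.

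Mylk4, a kinase gene of the myosin light chain kinase family, was the second largest of the class, with 54239 of 79119 body bases (68.6%) in 107 peaks. Fbxo32, which encodes the ubiquitin ligase atrogin-1, had 21483 of 38053 body bases (56.5%). Its companion Trim63, which encodes MuRF1, had 12443 of 13507 (92.1%) in 9 peaks. Both ligases mark muscle proteins for degradation. Pvalb, which encodes the calcium buffer parvalbumin of fast fibres, had 12198 of 12285 (99.3%).

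Enzymes and carriers of energy metabolism were also present, of which Ucp3, Ppp1r3c and Plin4 were in none of the lists. The pyruvate dehydrogenase kinase gene Pdk4 had 11778 of 11910 body bases covered (98.9%). Ckm, muscle creatine kinase, had 71.1%, Pygm, muscle glycogen phosphorylase, had 79.4%, and Ucp3, a mitochondrial carrier of muscle, had 86.0%. The glycolytic genes Aldoa and Pgam2 were covered over the whole body, Eno3 over 93.4% and Gapdh over 64.1%. Ppp1r3c, which targets protein phosphatase 1 to glycogen, had 97.5%, and Glul, glutamine synthetase, had 70.5%. Slc25a4, the muscle ADP/ATP carrier, had 73.5%. Plin4, which encodes a lipid droplet protein, had 78.7%.

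Jun and Nr4a1 were the body-covered members of the immediate early list, with 87.0% and 53.3%. Ddit4, which encodes an inhibitor of mTOR signalling and was in the glucocorticoid list, had 100%. Cebpd, a transcription factor of the same list, had 91.6%, although only 37.3% of its covered body bases lay outside the overlapping gene Spidr. Members in none of the lists included Gadd45b, a stress response gene, with 58.8%, and the circadian genes Nr1d1, a nuclear receptor, and Dbp, a transcription factor, with 87.9% and 69.0%. Txnip, a regulator of glucose uptake, lay wholly inside a single peak. The small heat shock protein genes Hspb6 and Hspb7 had 63.4% and 93.9%, and the antiproliferative genes Tob1 and Tob2 had 73.8% and 52.8%.

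Some members of the class shared their covered bases with an overlapping gene. Of the 54 genes, 16 overlapped another protein-coding gene, and in 5 of them less than 50% of the covered body lay outside such genes: Gm42417, Ankrd23, Acta1, Tnnc2 and Cebpd. This count misses coverage that runs in past the 3′ end of a neighbour. With peaks at most 500 bases apart joined, 1958 bases past the end of Hspb6 reached Lin37. Likewise, 2583 bases past the end of Dbp reached Sphk2. The covered body of Tnnc2, fast troponin C, lies within the annotated span of Ube2c on the other strand, whose 81.3% coverage came with only 111 covered TSS bases. Low TSS coverage was also seen in Ybx2 with 193 bases, Gm42417 with 208, Lin37 with 275 and Hspb7 with 356, against a median of 1828 bases over the class. The members just inside the threshold were Lin37 with 52.2% and Ybx2 with 52.6%, and the genes just outside it were Vegfa with 49.5%, Mylpf with 46.5% and Zfp36 with 46.0%.

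**Figure D2:**
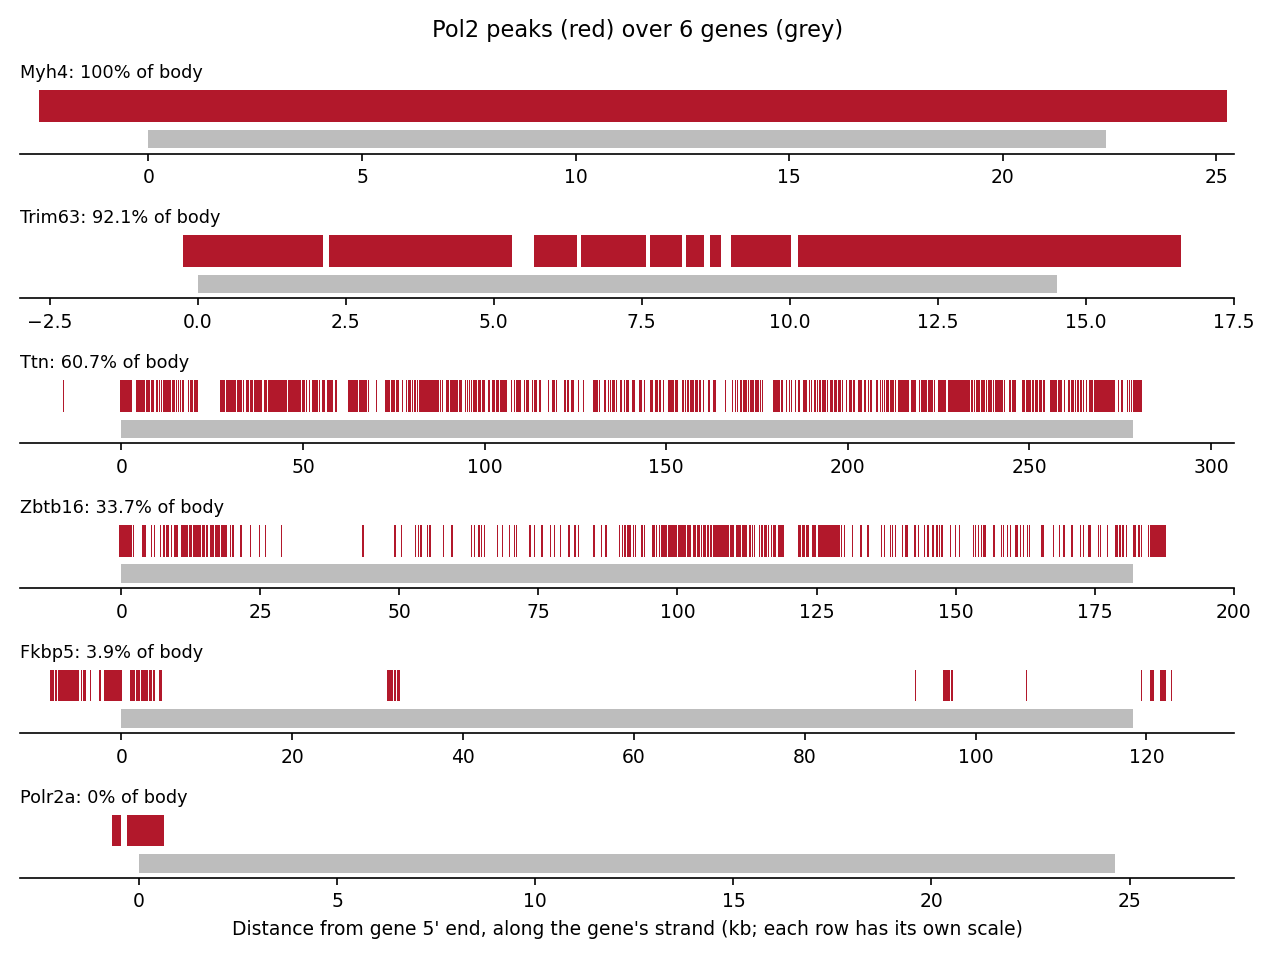
Pol2 peaks (red) over the spans of 6 genes (grey), plotted as distance from the gene's 5′ end along its strand in kb, each row on its own scale. Myh4 lay in 1 unbroken peak, Ttn and Zbtb16 carried 375 and 203 peaks along their length, Fkbp5 had separate groups, and Polr2a had peaks at the 5′ end only.

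Long genes with heavy coverage differed in where along the gene the peaks lay. Cut into 4 equal parts from 5′ to 3′, Ttn had 66.2%, 57.8%, 48.5% and 69.3% of its bases covered, and Mylk4 had 80.8%, 73.9%, 53.5% and 71.7%. Ldb3, which encodes the Z-disc protein ZASP, had 76.3%, 72.9%, 20.97% and 0.754%, with little coverage near the 3′ end. Myot, which encodes the Z-disc protein myotilin, had 84.8%, 36.2%, 41.2% and 5.93%. Pfkm, muscle phosphofructokinase, showed the reverse, with 3.88%, 20.2%, 66.9% and 33.4%. Nr4a1 likewise had 1.21% in its first part and 81.1% in its last. The ends of an annotated span need not be those used in muscle.

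Below the 50% mark, Tacc2 and Zbtb16 carried more covered body bases than any body-covered gene except Ttn. Tacc2, which encodes a coiled-coil protein, had 69219 of 179443 body bases covered (38.6%) in 201 peaks, and by part 22.2%, 70.5%, 48.9% and 14.6%. The 82571 body bases counted for Fgfr2 lay in overlapping genes, Tacc2 among them, apart from 2821, since its annotated span runs over 2960900 bases. Zbtb16, a glucocorticoid-induced transcription factor, had 60816 of 180648 body bases covered (33.7%) in 203 peaks. Asb2, a ubiquitin ligase subunit of muscle, had 40.04%, Flnc, filamin C, had 39.6%, and Myh1, the myosin heavy chain of type IIx fibres, had 33.8%. Neb, which encodes nebulin, had 3.64% of its body covered by 8249 bases.

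**Figure D3:**
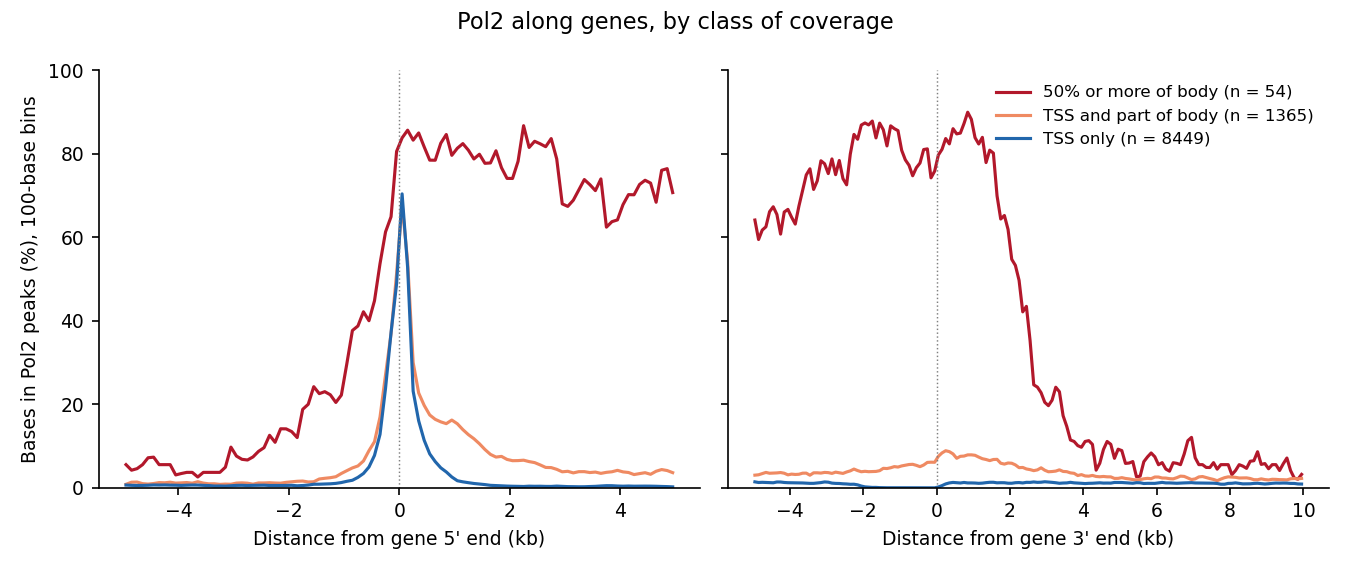
Percent of bases in Pol2 peaks in bins of 100 bases around the gene 5′ end (left) and 3′ end (right), by class of gene: 54 body-covered genes, 1365 genes with the TSS and part of the body covered, and 8449 TSS-only genes. Body-covered genes stayed high through the body and for about 2 kb past the 3′ end, and the other classes fell to low levels away from the start.

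Pol2 in the body-covered genes continued past the annotated 3′ end. With peaks at most 500 bases apart joined, the covered stretch ran on beyond it in 49 of the 54, by a median of 2299 bases, and in 46 by more than 1 kb. In 20 of the 49 the stretch reached another protein-coding gene, as at Nmrk2, where its 5852 bases ran into Dapk3, so it cannot be assigned to the upstream gene alone. In the other 29 it touched no coding gene and had a median of 2252 bases, with more than 1 kb in 26. The 5 kb past the 3′ end held a median of 2172 covered bases, against 592.5 in the 5 kb before the 5′ end, and 46 of the 54 genes had more past the end than before the start. The longest of these 29 was 4807 bases at Pvalb, and Slc25a4 had 4280 bases. Coverage in the bin just past the 3′ end was 79.7% of bases in body-covered genes and 7.55% in genes with partial coverage. TSS-only genes have no covered body base by definition, which also empties the bins near their ends. Along the body, cut into 20 equal parts, the mean coverage of the 54 genes lay between 74.95% and 87.2% in every part, with 81.9% in the first and 78.3% in the last. In genes with partial coverage it was 22.9% in the first part, 2.59% in its lowest part and 5.43% in the last.

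At TSS-only genes the peak sat on and just after the start. In the bin of the first 100 bases after the 5′ end, 70.4% of bases were covered in this class and 68.0% in genes with partial coverage. For 1785 TSS-only genes with a single start and no other coding start within 2000 bases, the peak midpoint lay at a median of 36 bases downstream of the start (quartiles -32 and 87). The peak at the start was 239 bases wide at the median, contained the start itself in 1260 genes (70.6%), and was the only peak in 1373 (76.9%). More covered bases lay downstream than upstream of the start in 1128 of them (63.2%, exact 95% interval 60.9 to 65.4%). By covered TSS bases, the leading TSS-only genes included Ubtf, a factor of ribosomal RNA transcription, Tef, a clock-controlled transcription factor, Hnrnpl, a splicing regulator, Hmgb1, a chromatin protein, and Klf10, a transcription factor. Hmgb1 had no covered base in a body of 132573 bases, and Rev3l, a DNA polymerase subunit, none in 141847.

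**Figure D4:**
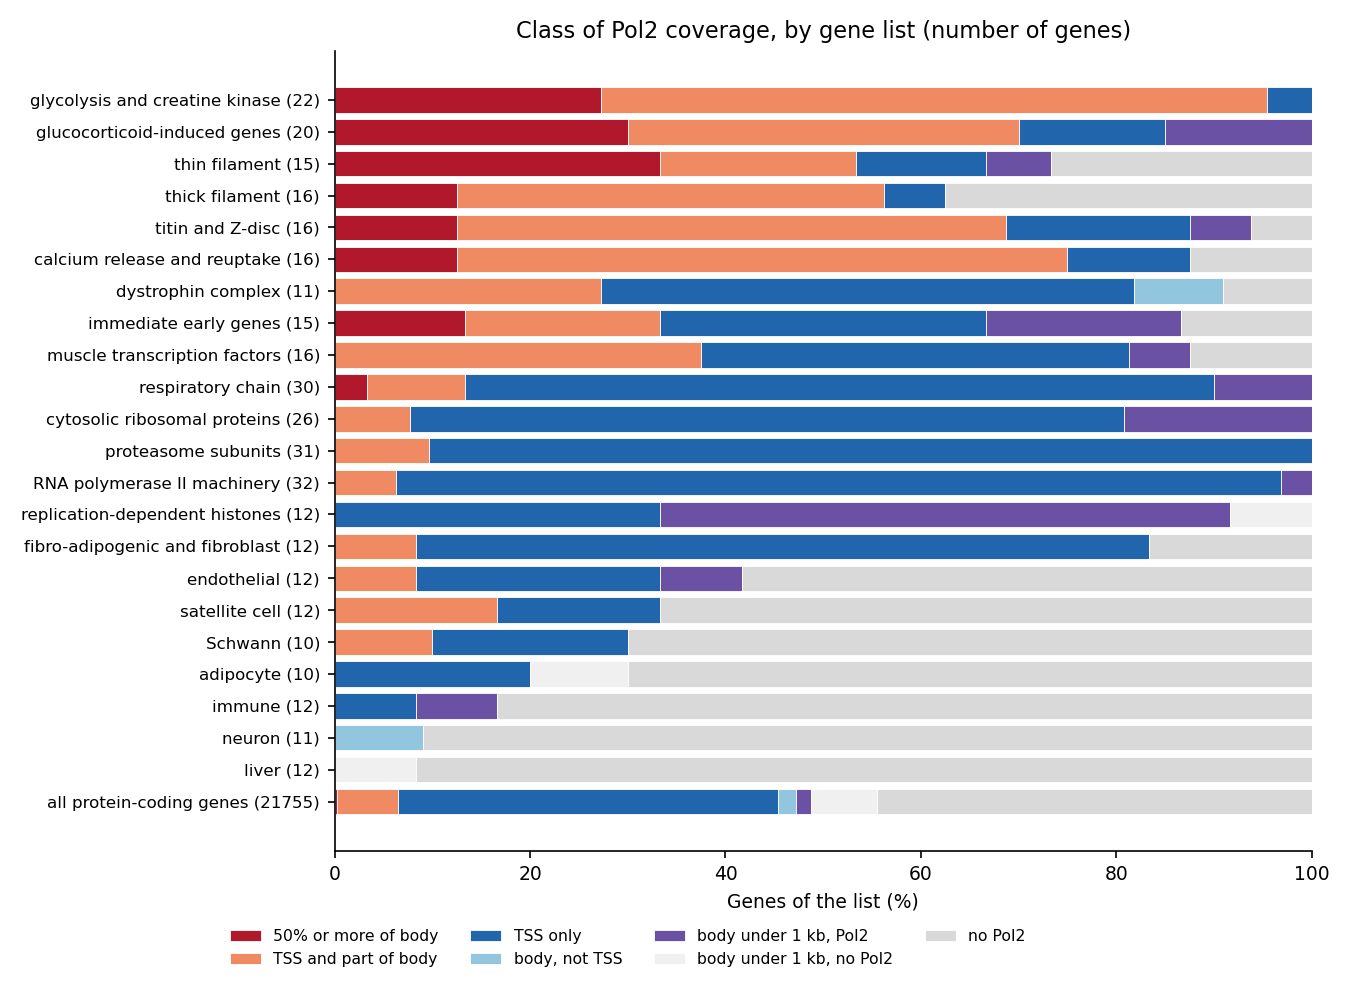
Share of the genes of each list (horizontal axis, percent of the list) by class of Pol2 coverage, with the number of genes in brackets and all protein-coding genes in the bottom row. Red (50% or more of the body) appears in the sarcomere, calcium, glycolysis, glucocorticoid and immediate early lists and in 1 gene of the respiratory chain list, while ubiquitous complexes are mostly blue (TSS only).

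Gene lists are given beside all genes, of which 47% had Pol2 at the TSS. Of all genes with a body of at least 1 kb, 0.271% were body-covered, 6.85% partly covered and 42.4% TSS-only. Glycolysis and creatine kinase genes had Pol2 at the TSS in 22 of 22, with 6 body-covered, 15 partly covered and 1 TSS-only, and a median body coverage of 9.20%, beside 0% over all genes. Among the partly covered were Pfkm with 32.3% of the body, Gpd1, glycerol-3-phosphate dehydrogenase, with 17.8%, and Ampd1, muscle AMP deaminase, with 10.7%. Pgk1, a glycolytic kinase on the X chromosome, was the TSS-only member. Glucocorticoid-induced genes had Pol2 at the TSS in 20 of 20, with 6 body-covered (Ddit4, Pdk4, Trim63, Cebpd, Glul and Fbxo32), 8 partly covered and 3 TSS-only, and a median of 10.2% of the body. Fkbp5, a co-chaperone of steroid receptors, had 4347 of 111363 body bases covered (3.90%), and Per1, a clock gene, had 20.5%. The TSS-only members were Errfi1, Foxo3 and Nfkbia.

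Sarcomere lists were mixed, and are read against the same shares of all genes, 47% at the TSS and 0.271% body-covered. Of 15 thin filament genes, 11 had Pol2 at the TSS and 5 were body-covered (Acta1, Tnnc2, Tnnt3, Tpm1 and Tpm2). Of 16 thick filament genes, 10 had Pol2 at the TSS (62.5%, exact 95% interval 35.4 to 84.8%, which includes 47%) and 2 were body-covered (Myh4 and Myl1), with Mylk2, a myosin light chain kinase, at 44.8%. Of 16 titin and Z-disc genes, 15 had Pol2 at the TSS and 2 were body-covered (Ttn and Actn3). Of 16 calcium release and reuptake genes, 14 had Pol2 at the TSS and 2 were body-covered (Atp2a1 and Pvalb), while Ryr1, the calcium release channel, had 2.69% of its body covered. The dystrophin complex had Pol2 at 9 of 11 starts and no body-covered gene. Dmd, which encodes dystrophin and spans 2257272 bases, had 193 covered TSS bases and none in the body.

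Fast and slow forms of the same protein are described in 10 isoform pairs. The pairs were picked from these lists after their values were seen, so the counts describe these genes only. The labels fast and slow were set pair by pair, and those of Actn2, Atp2a2, Tpm3 and Tpm1 need not be specific to a fibre type. All 10 fast forms and 3 of 10 slow or cardiac forms (Actn2, Atp2a2 and Tpm3) had Pol2 at the TSS, beside 47% of all genes. Of the fast forms 7 were body-covered and of the slow forms none, beside 0.271% of all genes with a body of at least 1 kb. The count of none thus does not set the slow forms apart. Myh4 had 22418 of 22418 gene bases covered, and Myh7, the slow and cardiac myosin heavy chain, had 0 of 23943. Troponin genes of the fast form had 17069 bases covered in Tnnt3, 2672 in Tnnc2 and 2603 in Tnni2, and no base was covered in their slow forms Tnnt1, Tnnc1 and Tnni1. Atp2a1 had 17251 bases covered, and Atp2a2, the pump of slow and cardiac muscle, had 143, all near its start. H3K4me3 was present in the TSS zone of all 10 fast forms and 5 of the 10 slow forms, beside 61.4% of all genes. Myh2, the myosin of type IIa fibres, had Pol2 on 209 TSS bases and none in its body.

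Ubiquitous complexes and the respiratory chain list had Pol2 at every start and a median of 0% of the body covered, as over all genes. All 26 cytosolic ribosomal protein genes, all 31 proteasome subunit genes, all 32 genes of the Pol2 machinery and all 30 respiratory chain genes had Pol2 at the TSS, against 47% of all genes. Of those with a body of at least 1 kb, 19 of 21, 28 of 31, 29 of 31 and 23 of 27 were TSS-only, against 42.4% of all such genes. Only Slc25a4, the ADP/ATP carrier placed in the respiratory chain list, was body-covered, beside 0.271% of all such genes. Rpl32, a ribosomal protein gene, came next with 32.5% of the body. Polr2a had 1162 of 2415 TSS bases covered and none of 23226 body bases. In the same order, any body base was covered in 2 of 21, 3 of 31, 2 of 31 and 4 of 27, beside 9.09% of all such genes. The median body coverage of each of the 4 lists was 0%, which does not set them apart from all genes. The highest in the Pol2 machinery was 1.63%, at Tbp, the TATA-binding protein.

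Of 16 muscle transcription factors, 14 had Pol2 at the TSS, beside 47% of all genes. None was body-covered, beside 0.271% of all genes. Of the 15 with a body of at least 1 kb, 6 were partly covered, beside 6.85% of all such genes, and 7 were TSS-only, near the 42.4% of all such genes. Myod1, a master regulator of the muscle lineage, had 920 TSS bases covered and none of the body, and Myog and Myf5 had no Pol2 base. Of 15 immediate early genes, 13 had Pol2 at the TSS. Of the 12 with a body of at least 1 kb, 2 were body-covered (Jun and Nr4a1), and 5 were TSS-only, also near the share of all genes, among them Fos and Egr1. Of 12 replication-dependent histone genes, 11 had Pol2 at the TSS, mostly as genes too short for a body measure. Mstn, which encodes the growth inhibitor myostatin, had Pol2 at the TSS only. Chrna1, the acetylcholine receptor subunit of the neuromuscular junction, had none.

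Genes on the X chromosome had Pol2 less often. Pol2 was at the TSS of 262 of 948 X-linked genes (27.6%, exact 95% interval 24.8 to 30.6%) and 9957 of 20807 autosomal genes (47.9%, 47.2 to 48.5%). Among genes with H3K4me3 in the TSS zone the shares were 63.7% (58.8 to 68.4%) on the X and 76.5% (75.7 to 77.2%) on autosomes. No X-linked gene had 50% of the body covered, which allows up to 0.388% by the exact upper limit, against 0.260% of autosomal genes. The labels do not give the sex, and the part of the number of X copies was not tested.

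The classes were then compared with the other chromatin lists. H3K4me3 marks promoters, H3K27ac active promoters and enhancers, and H3K4me1 enhancers and the flanks of promoters. H3K4me3 was in the TSS zone of 98.1% of body-covered genes, 99.6% of partly covered genes, 99.6% of TSS-only genes, 48.6% of genes with Pol2 in the body without the TSS and 29.8% of genes without Pol2, against 61.4% of all genes. Conversely, Pol2 was at the TSS of 76.1% of the 13365 genes with H3K4me3 there and of 50 of 8390 genes without it (0.596%, exact 95% interval 0.443 to 0.785%). H3K27ac was in the TSS zone of 100% of body-covered genes, 99.1% of partly covered genes, 98.3% of TSS-only genes, 30.3% of body-without-TSS genes and 12.1% of genes without Pol2, against 52.3% of all genes. The strongest H3K4me3 peak at the TSS had a median deposited fold over input, the authors' own value, of 27.9 in body-covered genes, 37.7 in partly covered genes and 39.0 in TSS-only genes. In width the order was turned, with medians of 2702, 1747 and 1412 bases for the widest H3K4me3 peak. H3K4me3 was paired with Input2 and Pol2 with Input1.

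Glucocorticoid receptor (GR) and CTCF peaks also differed in density along the bodies. GR peaks numbered 16.3 per 100 kb of body in body-covered genes, 15.7 in genes with 25 to 50% covered, 12.9 with 5 to 25%, 2.25 with up to 5% and 0.647 in TSS-only genes. CTCF peaks numbered 0.690 per 100 kb in body-covered genes, 1.63 with 25 to 50%, 1.86 with 5 to 25%, 0.439 with up to 5% and 0.257 in TSS-only genes. The first 2 CTCF values rest on 5 and 13 peaks only. Densities were pooled over the bases of a class, and Ttn gave 254653 of the 725199 body bases of body-covered genes. It held 4 of their 118 GR peaks and no CTCF peak, so these densities rest in large part on Ttn. The histone marks were denser in body-covered than in TSS-only genes as well. Per 100 kb, H3K27ac peaks numbered 25.5 against 1.80, H3K4me3 peaks 8.41 against 0.233 and H3K4me1 peaks 10.9 against 6.26. The median body was 4735 bases in body-covered and 21913 bases in TSS-only genes, and the part of body length was not tested. At the TSS, GR was present in 98.1% of body-covered genes (90.1 to 99.9%), 88.9% of partly covered genes and 85.1% of TSS-only genes, against 43% of all genes. CTCF was present at 5.56% of body-covered starts (1.16 to 15.4%), 13.1% of partly covered and 10.6% of TSS-only starts, against 6.58% of all genes, and H3K4me1 at 87.0%, 93.2% and 93.4%, against 64.9%. GR and Pol2 shared Input1, and the part of a common input in these densities was not tested.

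Promoter composition differed between the classes. Windows of 300 bases, 250 before and 50 after the GENCODE 5′ end, were read from the genome. The ratio of observed to expected CG pairs had a median of 0.538 in body-covered genes, 0.741 in partly covered genes, 0.770 in TSS-only genes, 0.395 in body-without-TSS genes and 0.274 in genes without Pol2, against 0.530 over all genes. The G+C content had medians of 59.8%, 61.7%, 60.0%, 55.0% and 50.7%, against 55.0% over all genes. TATAAA, searched on the strand of the gene, was found in 10 of 54 body-covered promoters (18.5%, exact 95% interval 9.26 to 31.4%), 3.81% of partly covered and 4.20% of TSS-only promoters, and 10.99% of promoters without Pol2, against 8.69% of all. Within the stretch 16 to 45 bases before the start it was in 6 of the 54 (11.1%, 4.19 to 22.6%), 0.660%, 0.876% and 3.64%, against 2.66% of all. These TATAAA counts depended on which start was used: in the RefSeq windows, which matched 48 of the 54 genes, TATAAA was in 6 (12.5%, 4.73 to 25.3%), against 8.61% of all, and lay 16 to 45 bases before the start in 2 (4.17%, 0.509 to 14.3%), against 2.92%. CAGCTG, the core of an E-box bound by myogenic factors and searched on both strands, was in 29.6% of body-covered promoters (18.0 to 43.6%), 17.7% of partly covered and 14.2% of TSS-only promoters, against 15.4% of all. The MEF2 consensus was in 5.56% (1.16 to 15.4%), 0.806% and 0.403%, against 0.510% of all, and the CArG box of serum response factor in 7.41% (2.06 to 17.9%), 1.61% and 1.10%, against 1.49%. In RefSeq windows 2 of 48 body-covered promoters held each of these motifs (4.17%). GGGCGG, the core of the GC box, was in 48.1% of body-covered promoters (34.3 to 62.2%), 63.4% of partly covered and 63.1% of TSS-only promoters, against 43.4% of all. GGGCGG and the CG pairs overlap by construction, and no match was read as a binding site.

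Genes with Pol2 in the body but not at the TSS were few and lightly covered, with a median of 219 body bases. The largest was Lsp1, a leukocyte-specific actin-binding protein gene, with 6571 of 26692 body bases covered, where the peaks adjoined those upstream of the neighbouring Tnnt3. Atcay, whose product caytaxin is known from the brain, had 5225 of 25325, next to the body-covered gene Nmrk2. The developmental genes Hoxc5 and Hoxc6 had 2431 and 2094 bases, all inside the spans of overlapping genes. Cx3cr1, a receptor of immune cells, had 1789 bases in an annotated span of 168264 bases that overlaps 5 other genes.

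Distal peaks, with no base within 1 kb of a coding TSS, numbered 6801, or 33.7% of all Pol2 peaks (exact 95% interval 33.0 to 34.3%). Of these 4374 lay in protein-coding genes, 460 lay outside them within 1 kb of the start of a non-coding gene, and 1967 were intergenic. A peak inside a coding gene was counted there even at a non-coding start, so the 460 are not all peaks at such starts. With the starts of all annotated genes in place of coding starts, 5602 peaks were distal. Their median width was 185 bases, against 224 for peaks in TSS zones, and 995 lay more than 50 kb from a coding TSS. Among distal peaks, 31.9% overlapped H3K4me3, 34.1% overlapped H3K27ac and H3K4me1 without H3K4me3, 23.8% overlapped H3K4me1 only and 8.35% overlapped none of the 3 marks. In TSS zones 96.9% overlapped H3K4me3.

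**Figure D5:**
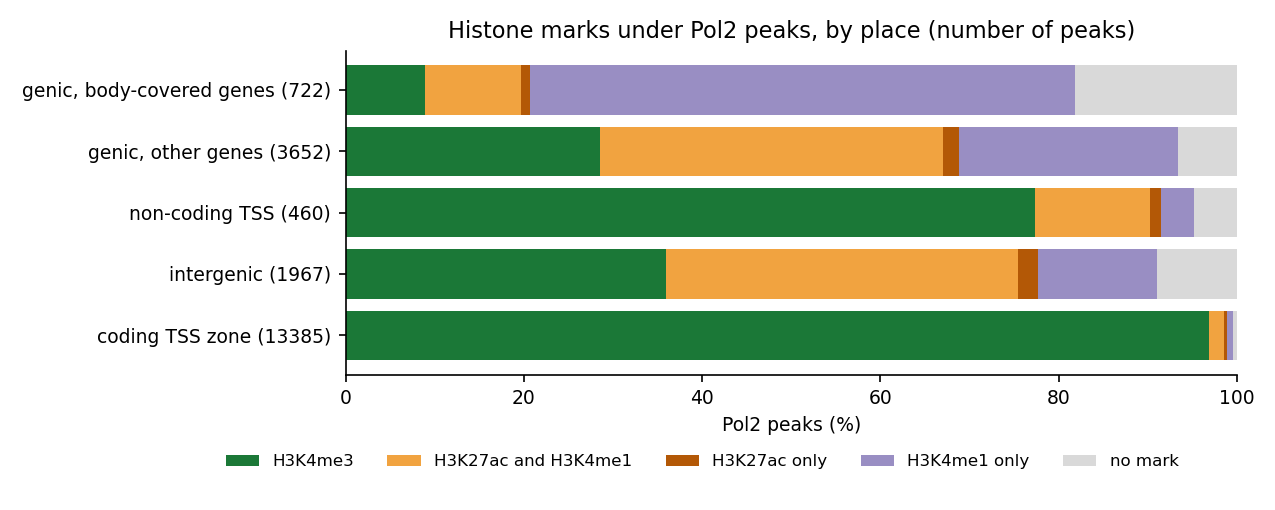
Share of Pol2 peaks (horizontal axis, percent) by the histone marks they overlapped, for genic peaks in body-covered genes, genic peaks in other genes, peaks at non-coding starts, intergenic peaks and, in the bottom row, peaks in coding TSS zones. The 722 genic peaks of body-covered genes were mostly under H3K4me1 only (61.2%), against 24.6% of the 3652 genic peaks of other genes; without Ttn the first share was 47.9%.

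Genic distal peaks fell into kinds by the gene they were in. The 722 in body-covered genes were wider, with a median of 332 bases against 173.5 in the 3652 elsewhere. Wider peaks are partly built into a class defined by Pol2 coverage of the body, and wider peaks also overlap other features more easily. These 722 peaks touched an exon in 56.0% against 27.6%. H3K27ac overlapped 20.1% of them (exact 95% interval 17.2 to 23.2%) against 67.8% (66.3 to 69.3%) of the genic peaks in other genes, and no mark 18.1% against 6.57%. GR overlapped 7.89% against 34.3%. Ttn alone gave 334 of the 722, Mylk4 gave 104 and Fbxo32 gave 53, so the intervals do not measure spread between genes. Without the peaks in Ttn, an alternative added after seeing the data, H3K27ac overlapped 35.1% (30.3 to 40.03%), GR 13.7% (10.4 to 17.5%), H3K4me1 only 47.9% and no mark 16.2% of the remaining 388, and 44.85% touched an exon. The shares of the whole class thus rest in large part on Ttn, but the remaining peaks lay on the same side of those in other genes. The widest genic peaks outside TSS zones were 14320 bases in Pvalb, 10692 bases in Pdk4, 8479 bases in Tnnt3 and 6465 bases in Trim63.

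Non-coding genes carried some of the longest peaks. The widest, with 23124 bases at chr2:180385492-180408615, held 2 muscle microRNA hairpins whole, those of miR-133a-2 and miR-1a-1. It also overlapped the lincRNA B230312C02Rik and lay 47630 bases from the nearest coding start, that of Slco4a1. The second copies, miR-1a-2 and miR-133a-1 in an intron of Mib1, lay in a peak of 5150 bases. Of 9 muscle microRNA hairpins examined after the data were seen, these 4 were wholly covered and 5 had no covered base. The hairpins of miR-206 and miR-133b lay 211456 and 207651 bases from the nearest Pol2 peak, miR-208b 39221 bases and miR-499 29879 bases. That of miR-486 was 44 bases from a peak of 184 bases. Over all 2195 annotated microRNA genes, 57 hairpins (2.60%) lay wholly in a Pol2 peak, 15 of them outside coding TSS zones.

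Among long non-coding genes, Neat1, the RNA of nuclear paraspeckles, had 20700 of 20771 bases covered (99.7%). Nctc1, a non-coding gene of the Igf2 and H19 region, had all 13988 bases covered, in a peak of 16240 bases. Malat1, an abundant nuclear RNA, had 5703 of 6983 (81.7%), and Lncpint 7210 of 137924 (5.23%). Of the 460 peaks at non-coding starts, 224 lay within 1 kb of the start of a lincRNA gene and 31 within 1 kb of that of a small nuclear RNA gene. The widest intergenic peaks were 3455 bases long, 20355 bases from the start of Tob2, and 2883 bases long, near the 3′ end of Zbtb16. A peak of 2427 bases 5629 bases from the start of Slc25a4 and another of 2000 bases just past the 3′ end of Ttn lay downstream of body-covered genes, the first under H3K4me1 only and the second under none of the 3 marks.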

How the data were processed

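Chromatin immunoprecipitation with sequencing had 1 library for each of 6 antibodies, and 2 inputs. The labels' protocols give 10 ng of DNA and 7 PCR cycles for a library. Per the submitters' processing notes, the authors used bcl2fastq 2.17.1.14, Bowtie 1.0.0, MACS2 and build mm10. The sources used here give neither the role of each tool nor the peak thresholds. The deposited Pol2 list holds positions in bases and no score, and for H3K4me3 the deposited fold (ratio) over its control was also read. Read depth is unknown.

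Coverage was computed with Python 3.11.15 and numpy 2.4.6, exact 95% intervals with scipy 1.17.1 and figures with matplotlib 3.10.9. The code was tested on simulated peaks. Genes came from GENCODE M21 (mm10), with the lowest gene ID where a symbol was shared, and sequences from RefSeq GRCm38.p6. RefSeq promoter windows matched 16411 of 21755 genes (75.4%), too few for a check over all genes, so composition and motifs were read from the genome at the GENCODE 5′ end for 21748 genes, a choice made after seeing the data. Overlap meant at least 1 base.

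With 1 library there was no test and no p-value. The members and the 22 gene and marker lists were chosen with earlier results of these data known. Named genes were the 15 with most body bases covered, the 10 with the longest body among body-covered genes, the 10 TSS-only genes with most TSS bases, the 10 with most body bases and no TSS base, up to 3 per list, 23 set genes and the 10 widest distal peaks of each kind. All other names were chosen after their values were seen.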

Additional observations from a re-analysis of the deposited data

Results flagged for a closer look

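The Pol2 list also held 6 peaks on chromosome Y, which no comparison above used. They came up because the report covers chromosomes 1 to 19 and X only. Their number was above 3, the limit set for mentioning left-out peaks. A single peak on the mitochondrial genome was left out as well.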

How the results depend on the processing

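Most counts changed by less than 1.5 times under the alternatives. The number of genes with Pol2 at the TSS, 10219, ran between 9566 and 10355 with other windows, a minimum of 100 bases, the gene's 5′ end only or RefSeq genes, and was 6794 with the widest 50% of peaks (212 bases or more). The 54 body-covered genes became 106 at a threshold of 25% and 28 at 75%. They ran between 38 and 75 under the other settings: 38 for genes that overlap no other coding gene, 74 for the whole gene and 75 with joined peaks. RefSeq gene models gave 60, of which 51 were shared, with Dusp1, Kcnj11, Mylpf, Synpo2l, Tnni2 and Vegfa among the additions. TSS-only genes, 8449, ran between 5866 and 8569. Distal peaks, 6801, ran between 4833 and 7625, but were 2850 with the widest 50% of peaks and 3918 with peaks within 500 bases joined, both of which count fewer peaks by construction. The share of body-covered promoters with TATAAA was 12.5% in the RefSeq windows that matched and 18.5% in genome windows. Without peaks in Ttn, genic peaks of body-covered genes held H3K27ac in 35.1% (20.1% with them), GR in 13.7% (7.89%), H3K4me3 in 15.5% (8.86%) and H3K4me1 only in 47.9% (61.2%). No paired analysis was possible because each antibody had 1 library. Depth per library is unknown, so genes without a peak cannot be told from genes below the detection of the caller. Leaving out a replicate was not possible either.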
